A study of Mus musculus with 3 samples.

Results

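Binding of the retinoid X receptor RXRA was examined at 10 genes of 21887 protein-coding genes in mouse blood stem and progenitor cells. The 10 genes encode the E proteins (Tcf3, Tcf4 and Tcf12), the ID proteins (Id1, Id2 and Id3) and transcription factors of early lymphoid cells (Ikzf1, Ikzf2, Satb1 and Ebf1). They were listed by name, by a rule that uses no measured value, and all 10 were found in the gene table. For each gene, every RXRA peak in the gene or within 100 kb of it was taken from each of 3 peak lists. A peak is called gene-end where it overlaps the 1 kb on either side of the lower or the upper end of the gene, internal where it lies elsewhere in the gene, and distal where it lies outside.

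The peaks came from CUT&RUN, an assay that sequences the DNA cut free around an antibody, here one against RXRA, by a tethered nuclease. There was 1 library from 10000 haematopoietic stem cells (HSC), sorted as Lin-cKit+Sca1+CD48-CD150+, and 2 libraries from 50000 multipotent progenitors each, sorted as Lin-cKit+Sca1+CD150- and called MPP 1 and MPP 2 after their replicate numbers. All cells came from bone marrow of C57BL/6 mice of about 10 months, pooled from 3 or 4 animals, and all had received the RXR agonist bexarotene at a labelled 1 mM for 1 h. The genotype label of every library is VavCre+; WT, and the growth protocol calls the mice Rxrab fl/fl (WT), so every library shares these labels. Vav-Cre is active in blood cells, and the labels do not say whether floxed alleles had been deleted. Untreated cells and a control antibody were not analysed here. Peak lists hold no expression values, so the sorted identities could not be checked against marker levels. With 1 HSC library no difference between HSC and MPP has a replicate check and no p-value is given, and the labels do not say whether the MPP replicates came from separate pools of mice.

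E proteins are basic helix-loop-helix transcription factors that bind DNA as dimers at E-boxes, the motif CANNTG, and are required for lymphoid development. ID proteins share the dimerisation domain but lack the DNA-binding part, so they hold E proteins in dimers that do not bind DNA. Ikzf1 encodes Ikaros and Ikzf2 encodes Helios, zinc finger factors of lymphoid cells, Satb1 encodes a chromatin organiser of early lymphoid progenitors, and Ebf1 encodes a factor that B cell specification depends on.

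RXRA peaks numbered 4047 in HSC, 29848 in MPP 1 and 19570 in MPP 2. The lowest local background recovered from the peak statistics, a measure of depth, was 0.604 fragments in HSC, and that of MPP 1 was 4.75 times and that of MPP 2 1.79 times as high. HSC peaks were called from a pileup of 5 fragments up, MPP 1 peaks from 10 and MPP 2 peaks from 6. A pileup is the number of fragments over the summit, the highest point of a peak. The prefix of the peak names is the same in HSC and MPP 1 and differs in MPP 2, and the labels do not say what it marks.

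Gene-end peaks lay at all 6 E protein and ID genes in both MPP libraries, and at 1 of the 4 lymphoid factor genes. In HSC, Tcf3 and Tcf4 had one, 2 of 10 genes, against 8.18% of all protein-coding genes. Tcf3, Tcf4, Tcf12, Id1, Id2, Id3 and Ebf1 had one in MPP 1, and the same 7 genes had one in MPP 2, against 41.2% and 35.9% of all genes. A gene-end peak in both MPP libraries was present at 28.9% of all genes, and in all 3 libraries at 5.80%. Ikzf1, Ikzf2 and Satb1 had no gene-end peak in any library, as had 51.5% of all genes. With 10 genes the exact 95% binomial interval of 7 of 10 runs from 34.8% to 93.3% and that of 2 of 10 from 2.52% to 55.6%, and the share of all genes lies within it in each single library, by a narrow margin in MPP 2. For a gene-end peak in both MPP libraries the interval of 7 of 10 starts at 34.8%, above the 28.9% of all genes. That count includes Id1, whose peaks in MPP 1 and MPP 2 lie 800 bp apart, the former reaching the window by 4 bp. Id1 is not marked in MPP 1 with 500 bp at gene ends, nor in MPP 2 at q at or below 1e-05. The interval was not computed without Id1, so whether it would still start above the share of all genes is not shown. The interval covers counting error only, and the 10 genes were not drawn at random. The background was similar in short and long genes. HSC peaks marked the ends of 8.33% of genes under 50 kb, MPP 1 peaks 40.1% and MPP 2 peaks 35.9%, and among genes of 50 kb or more the shares were 7.66%, 45.0% and 36.1%. The 4 members under 50 kb had 1, 4 and 4 marked genes and the 6 longer ones 1, 3 and 3.

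Promoter sequences from RefSeq on the build GRCm38.p6, the assembly that mm10 names, were at hand for 7 of the 10 genes, with 15 windows of 300 bases from 250 before to 50 after a start of transcription. Peaks overlapped 4 of these windows, at Tcf3, Tcf12, Id2 and Id3, in both MPP libraries, and the Tcf3 window also in HSC. Of all 32817 such windows, 5.12% were overlapped by a peak in HSC, 24.3% in MPP 1 and 22.8% in MPP 2. The 250 bases before the start of these 4 are printed 5′ to 3′ on the strand of the gene. They were chosen because peaks that recurred at a start of transcription cover all or part of them. Of the 300 window bases, the HSC peak covers 166 at Tcf3 and the MPP 1 peak 216 at Id2. In the Tcf3 sequence, chr10:80433636-80433885 on the minus strand, capitals mark the 89 bases that the peaks of all 3 libraries cover. In the others capitals mark the E-box CANNTG, the NF-Y motif CCAAT and the SP motif GGGCGG on either strand. Tcf12 is chr9:72111820-72112069 on the minus strand, Id2 is chr12:25096093-25096342 on the minus strand, and Id3 is chr4:136143572-136143821 on the plus strand.
Tcf3: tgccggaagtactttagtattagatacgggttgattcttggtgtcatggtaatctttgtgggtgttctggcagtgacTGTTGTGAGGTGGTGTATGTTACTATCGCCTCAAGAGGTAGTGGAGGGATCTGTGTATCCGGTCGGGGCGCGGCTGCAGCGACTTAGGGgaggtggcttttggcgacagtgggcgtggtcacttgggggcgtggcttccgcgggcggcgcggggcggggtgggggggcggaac
Tcf12: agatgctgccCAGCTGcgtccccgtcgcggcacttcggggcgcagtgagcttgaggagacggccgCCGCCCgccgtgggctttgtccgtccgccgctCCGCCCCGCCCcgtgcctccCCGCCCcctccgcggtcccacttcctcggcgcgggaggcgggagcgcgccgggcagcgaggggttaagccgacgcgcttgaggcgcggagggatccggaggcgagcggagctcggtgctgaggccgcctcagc
Id2: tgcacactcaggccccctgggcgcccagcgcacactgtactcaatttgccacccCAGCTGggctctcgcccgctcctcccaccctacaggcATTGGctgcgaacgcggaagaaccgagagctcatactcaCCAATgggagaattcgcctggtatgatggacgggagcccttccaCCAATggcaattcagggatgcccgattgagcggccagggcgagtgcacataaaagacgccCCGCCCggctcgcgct
Id3: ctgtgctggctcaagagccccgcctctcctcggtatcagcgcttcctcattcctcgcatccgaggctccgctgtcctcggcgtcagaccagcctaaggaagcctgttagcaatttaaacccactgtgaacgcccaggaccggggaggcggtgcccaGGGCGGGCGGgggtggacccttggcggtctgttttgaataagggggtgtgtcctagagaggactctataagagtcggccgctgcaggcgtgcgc

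Neither of the core motifs of nuclear receptors that were searched, AGGTCA and its variant GGGTCA, was found on either strand of these 4 windows. They are held by 16.3% and 13.7% of all promoter windows. The E-box form CAGCTG lies at position -240 of Tcf12 and at -196 of Id2, counted from the start of transcription to the first base of the motif, and 16.3% of all windows hold it. Both MPP peaks cover the motif at Tcf12, while at Id2 only the peak of MPP 2 does. The Tcf3 window holds 1 E-box, CACTTG at -54, under both MPP peaks and outside the HSC peak, and 72.3% of windows hold some CANNTG. It also holds CCGGAAGT, the core of ETS factor sites, at -248, under the HSC and MPP 2 peaks and outside that of MPP 1, which 3.89% of windows hold. GGGCGG, a site of SP family factors, occurs in all 4 windows and in 35.6% of all, with overlapping copies at Tcf12 and Id3. CCAAT, the site of the factor NF-Y, occurs 3 times in the Id2 window, under both MPP peaks each time, and in 37.4% of all windows. The E-box form CACCTG, the RUNX motif TGTGGT, the GATA motif AGATAA and the Ikaros motif TGGGAA were not found in these 4, and 20.2%, 16.8%, 11.2% and 25.6% of all windows hold them. Of these motifs, CAGCTG and also CACCTG are forms of CANNTG, so the counts are not separate.

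**Figure D1:**
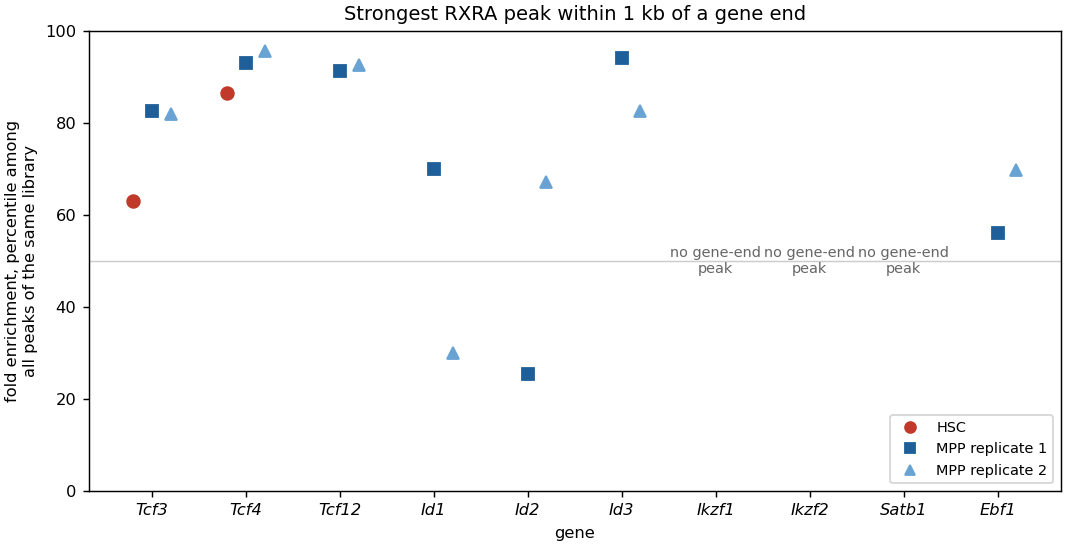
The strongest RXRA peak within 1 kb of an end of each gene, plotted as the percentile of its fold enrichment among all peaks of the same library (vertical axis), for HSC (circles), MPP 1 (squares) and MPP 2 (triangles). Tcf4 lies at 86.5, 93.1 and 95.7, HSC has points at Tcf3 and Tcf4 alone, and 3 genes have none.

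Among the E protein genes, Tcf4 had the gene-end peak of highest fold in HSC. Fold enrichment is the value deposited by the authors for each peak, and it is used to describe and rank peaks within a library only. It was 7.08 in HSC (rank 545), 6.99 in MPP 1 (rank 2066) and 9.69 in MPP 2 (rank 848). The recovered pileups were 14 fragments in HSC (exact 95% Poisson interval 7.65 to 23.5), 32 in MPP 1 (21.9 to 45.2) and 24 in MPP 2 (15.4 to 35.7). The 3 summits lay within 54 bp of each other. They sit 908, 942 and 962 bp inside the lower end of the gene on chromosome 18, which runs from 69343429 to 69687967, so the peaks leave the window when it is narrowed to 500 bp. By percentile of gene-end fold over the 3 libraries, the nearest of the 1270 genes marked in all of them were Phf20, Gtf2h5 and Serac1, the last 2 at equal distance and with equal folds in each library.

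Tcf3 also had a gene-end peak in all 3 libraries. The fold was 5.86 in HSC, 5.81 in MPP 1 and 7.50 in MPP 2, with pileups of 10 (4.80 to 18.4), 27 (17.8 to 39.3) and 21 fragments (13.0 to 32.1). The peaks lie at the upper end of the gene, chr10:80409541-80433976, where transcription starts on the minus strand. The summits did not coincide. Relative to the annotated start in bp, the HSC summit lay at -189, that of MPP 2 at -45 and that of MPP 1 at 17. The HSC peak overlapped that of MPP 1 by 89 bp and that of MPP 2 over all of its 272 bp. At q at or below 1e-05 the HSC peak at Tcf3 was no longer counted, and Tcf4 was then the 1 gene of the 10 with a gene-end peak in HSC.

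Tcf12, which encodes the E protein HEB, was marked in MPP and had no HSC peak within reach. Its fold was 6.72 in MPP 1, with 25 fragments (16.2 to 36.9), and 8.92 in MPP 2, with 19 fragments (11.4 to 29.7). These stand at percentiles 91.3 and 92.7 of their libraries, and the summits lie at -41 and -60 bp from the start at the upper end of the gene. The nearest HSC summit was 567200 bp from the gene, so Tcf12 was the only one of the 10 with no HSC peak in the gene or within 100 kb. Of all protein-coding genes, 46.6% had an HSC peak within that reach.

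At the ID genes, Id3 had the strongest gene-end peaks. The fold at Id3 was 7.24 in MPP 1 and 7.53 in MPP 2, with 41 (29.4 to 55.6) and 25 fragments (16.2 to 36.9) and summits 161 and 147 bp upstream of the start. At Id2 the fold was 3.81 in MPP 1, at percentile 25.5 of that library, and 6.41 in MPP 2, at percentile 67.1, both with 22 fragments (13.8 to 33.3). The Id2 summits lay 24 and 22 bp upstream of the start, 2 bp apart. Id3 thus stood in the upper part of both libraries, and Id2 stood above the median of MPP 2 and below that of MPP 1.

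The gene-end peaks of Id1 are not 1 site. In MPP 1 the peak, of fold 5.11 and 23 fragments (14.6 to 34.5), lies outside the gene with its summit 1190 bp below the lower end, and it reaches the 1 kb window by 4 bp. In MPP 2 the peak, of fold 4.92 and 13 fragments (6.92 to 22.2), has its summit 56 bp outside the same end. A gap of 800 bp separates them. The other 6 genes marked in both MPP libraries had overlapping gene-end peaks there.

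Ebf1 was the 1 lymphoid factor gene with gene-end peaks. The fold was 4.62 in MPP 1 and 6.59 in MPP 2, with 22 (13.8 to 33.3) and 15 fragments (8.40 to 24.7). The summits lie 924 and 947 bp upstream of the first annotated start, 23 bp apart, so the peaks do not cover that start. No HSC peak lay within 1 kb of it.

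Of the 10 genes, 5 were marked at a gene end by each MPP replicate while HSC had no such peak. Among all protein-coding genes the share was 23.1%. The 5 include Id1, whose MPP peaks do not overlap, and no interval was computed for this count. At their gene-end peaks these 5 genes had 22 to 41 fragments in MPP 1 and 13 to 25 in MPP 2. Scaled by the ratio of the backgrounds to the depth of HSC, these come to 4.63 to 8.62 and 7.26 to 14.0 fragments, where HSC peaks were called from 5 fragments up and had a median of 9. The scaled pileup reached 5 at 2 of the 5 genes scaled from MPP 1 and at 5 of 5 scaled from MPP 2. The part of depth in the absence of HSC peaks at these genes was not tested.

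**Figure D2:**
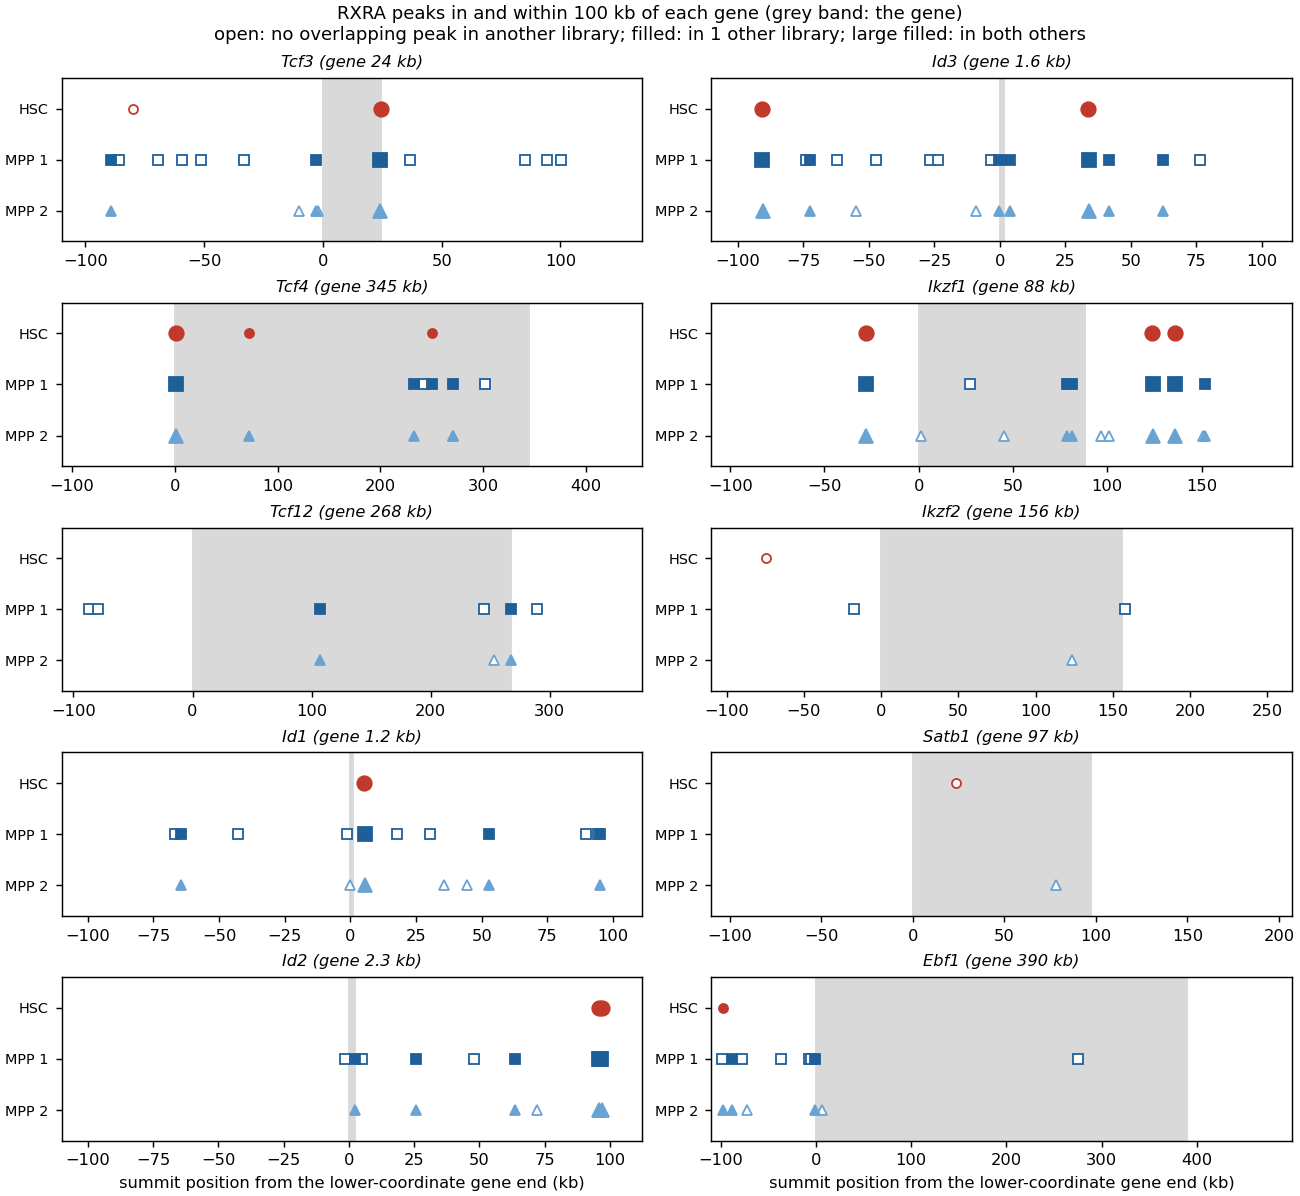
Summits of all peaks in and within 100 kb of each gene, as distance in kb from the lower-coordinate end (horizontal axis), in the 3 libraries (rows). Open symbols have no overlapping peak in another library, filled ones have one in 1 other library and large filled ones in both, drawn over open ones where they coincide. Ikzf2 and Satb1 hold open symbols only.

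In all, the 10 windows held 16 peaks in HSC, 74 in MPP 1 and 53 in MPP 2, which merge into 98 loci. Of the 98 loci, 10 were present in all 3 libraries, 22 in both MPP libraries alone, 2 in HSC and MPP 2, 1 in HSC and MPP 1, and 63 in a single library. Of the 16 HSC peaks, 13 overlapped an MPP peak (81.2%, exact binomial interval 54.4 to 96.0), against 85.2% of all HSC peaks. Of the MPP 1 peaks, 32 of 74 (43.2%, 31.8 to 55.3) overlapped an MPP 2 peak, against 44.9% in the whole list, and 32 of 53 MPP 2 peaks (60.4%, 46.0 to 73.5) overlapped an MPP 1 peak, against 68.1%. Sharing around these genes was thus close to that of the lists as a whole. By class, 6 of 8 gene-end loci were found in at least 2 libraries (exact interval 34.9% to 96.8%). For internal loci it was 7 of 20 (15.4% to 59.2%) and for distal loci 22 of 70 (20.9% to 43.6%). The shares over all loci of each class were not computed, so whether these genes differ is not shown.

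Peaks per 100 kb of window had a median over the 10 genes of 0.524 in HSC, 1.89 in MPP 1 and 1.57 in MPP 2. The medians over all protein-coding genes were 0, 2.01 and 1.38. Over those of 50 kb or more, as 6 of the 10 are, they were 0, 1.53 and 1.01. Id3 was highest in both MPP libraries, at 6.95 and 4.46. Satb1 was lowest in MPP 1, at 0, and Ikzf2 in MPP 2, at 0.281. A peak in the gene or within 100 kb was present for 46.6% of all genes in HSC, 84.2% in MPP 1 and 79.6% in MPP 2, and for 9, 9 and 10 of these 10. Long genes have wider windows, and the share with a peak among genes of like length was not computed. The windows of short genes reach into their neighbours, so a count near Tcf3, Id1 or Id3 includes peaks at other genes.

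**Figure D3:**
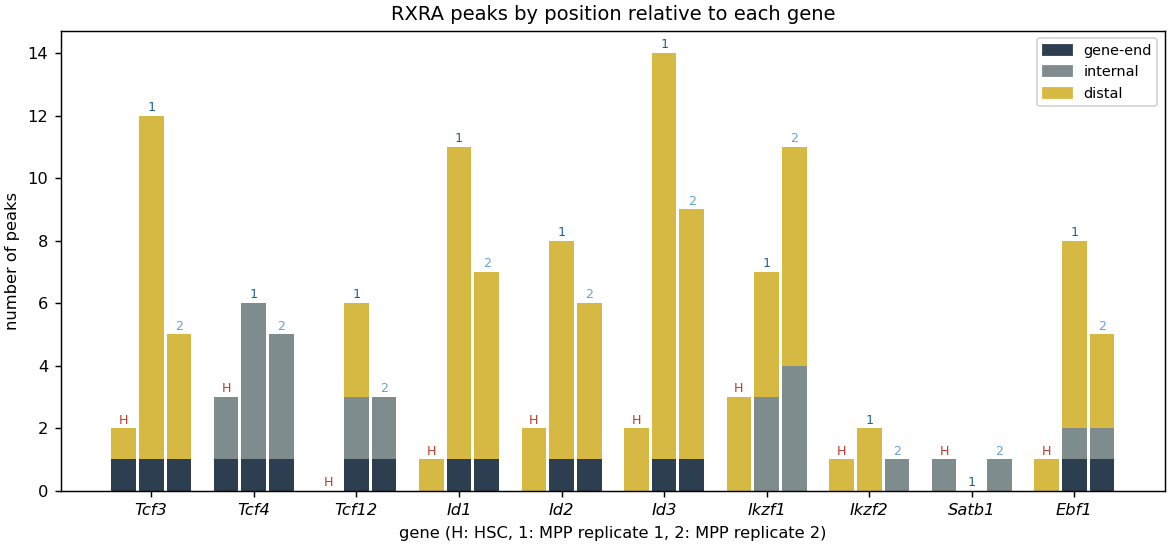
Number of RXRA peaks (vertical axis) that were gene-end, internal or distal for each gene, with 1 bar per library (H for HSC, 1 and 2 for the MPP replicates). Id3 has 14 peaks in MPP 1, and Satb1 has 1, 0 and 1.

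Internal peaks bear on the 6 genes of 50 kb or more. In HSC 2 of the 6 had one, Tcf4 and Satb1, against 13.8% of all genes of that length. In MPP 1 it was 4 of 6 against 57.5%, and in MPP 2 all 6 against 43.2%. The 6 members are 88 to 390 kb long, and the share among genes of like length was not computed. In Ikzf2, Satb1 and Ebf1 the internal MPP 2 peak had no counterpart in another library. Tcf4 was the 1 gene with internal peaks shared between HSC and MPP. A peak 72 kb inside its lower end had a fold of 4.94 in HSC and 5.56 in MPP 2, and one 250 kb inside had 4.00 in HSC and 4.34 in MPP 1. A further pair of Tcf4 loci, with summits about 232 and 271 kb inside, recurred in both MPP libraries. Their folds were 3.10 and 3.62 at the former and 4.39 and 6.79 at the latter. The peaks at 232 kb were weak, at fold percentiles 4.25 of MPP 1 and 1.68 of MPP 2. Those at 271 kb stood at percentiles 49.5 and 73.5. The HSC peak 250 kb inside was also weak, at percentile 3.88 of its library. Tcf12 had 1 internal locus in both MPP libraries, with folds of 4.65 and 5.06, about 107 kb inside its lower end.

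Ikzf1, the gene of Ikaros, was flanked and entered by shared peaks without a gene-end peak. Inside the gene, at chr11:11684962-11772930, a locus about 81 kb from the lower end, which is the start side on the plus strand, had folds of 6.46 in MPP 1 and 5.39 in MPP 2, with summits 3 bp apart. A second one, about 78 kb inside, had 4.39 and 4.86. MPP 2 alone had a peak of fold 5.33 with its summit 256 bp downstream of an annotated start and 1.22 kb inside the lower end of the gene, so outside the gene-end window. With windows around annotated starts, or of 5 kb at gene ends, this peak marked Ikzf1 in MPP 2. Outside the gene, a site between genes 27.7 kb upstream was called in all 3 libraries, with folds of 6.11 in HSC, 5.55 in MPP 1 and 9.10 in MPP 2 and summits within 15 bp. Pileups there were 11, 21 and 22 fragments. Beyond the other end of the gene, 36.0 kb away, a locus at an end of Fignl1 was also called in all 3, with folds of 6.39, 4.91 and 8.05. A locus inside Ddc, 47.7 kb away in HSC, was also called in all 3, with the HSC peak overlapping that of MPP 2 by 153 bp and that of MPP 1 by 2 bp. The HSC summit lay 262 bp from the summit of MPP 1 and 235 bp from that of MPP 2. Ikzf1 thus had 6 of its 12 loci in both MPP libraries and 3 in all libraries.

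Ikzf2 and Satb1 had few peaks and no shared one. Around Ikzf2 the 3 libraries gave 4 loci, 1 in HSC, 2 in MPP 1 and 1 in MPP 2. An MPP 1 peak 1.62 kb beyond the upper end of Ikzf2, of fold 4.04, marked the gene when the window at gene ends was widened to 5 kb. The HSC peak lay 74.5 kb from the gene with a fold of 6.97 and 11 fragments. Around Satb1 there were 2 loci, an HSC peak inside the gene with a fold of 5.39 and 8 fragments and an MPP 2 peak inside the gene with a fold of 4.17 and 8 fragments. In MPP 1, the deepest library, the nearest summit to Satb1 was 329033 bp from the gene.

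Some distal sites near the ID genes were shared by all 3 libraries. Of the loci in their windows, gene-end ones included, 1 of 14 at Id1, 2 of 9 at Id2 and 2 of 16 at Id3 were. Beyond the upper end of Id1 a site between genes, at 4.18 kb in HSC, had folds of 6.34 in HSC, 5.44 in MPP 1 and 8.10 in MPP 2, with 12, 27 and 26 fragments. Its summits were not at 1 point, the HSC summit lying 275 and 222 bp from those of MPP. Above Id2, a pair of sites 93.3 and 94.5 kb away in HSC was called in every library, with folds of 6.22, 3.85 and 5.02 at the former and 4.71, 5.59 and 6.26 at the latter. Near Id3, the sites in all 3 libraries lay at neighbouring genes, one at an end of Rpl11, a ribosomal protein gene, with folds of 5.39, 3.62 and 4.15, and one inside E2f2, a cell cycle transcription factor gene, with 4.84, 3.87 and 6.24. A site between genes 2.51 kb beyond Id3 in MPP 1 was called in both MPP libraries, with folds of 6.01 and 5.45.

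Of the 70 distal loci, 13 lay at an end of another protein-coding gene, 25 elsewhere inside one and 32 between protein-coding genes. Of the 8 found in all 3 libraries, 2 lay at another gene's end, at Rpl11 and Fignl1, 2 inside E2f2 and Ddc, and 4 between protein-coding genes, in the windows of Id1, Id2 and Ikzf1. Around Ebf1 the shared distal loci lay inside Rnf145, with 1 in HSC and MPP 2 of folds 5.58 and 4.91 and 1 in both MPP libraries of folds 4.65 and 4.94. Which gene a distal site acts on was not tested.

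Among the peaks in these windows, those found in all 3 libraries had the highest median fold within each library. The same medians over the whole lists were not computed, so whether these genes differ is not shown. In HSC the median fold was 5.99 for the 10 peaks with a counterpart in both MPP libraries and 5.39 for the 3 with none. In MPP 1 it was 5.17 for 10 peaks found in both other libraries, 4.73 for 23 found in 1 and 4.61 for 41 found in none. In MPP 2 the medians were 6.88, 5.42 and 5.06 for 10, 24 and 19 peaks. The ranges overlapped in every library, and the 3 HSC peaks with 1 counterpart had a median of 4.94, below that of peaks with none.

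**Figure D4:**
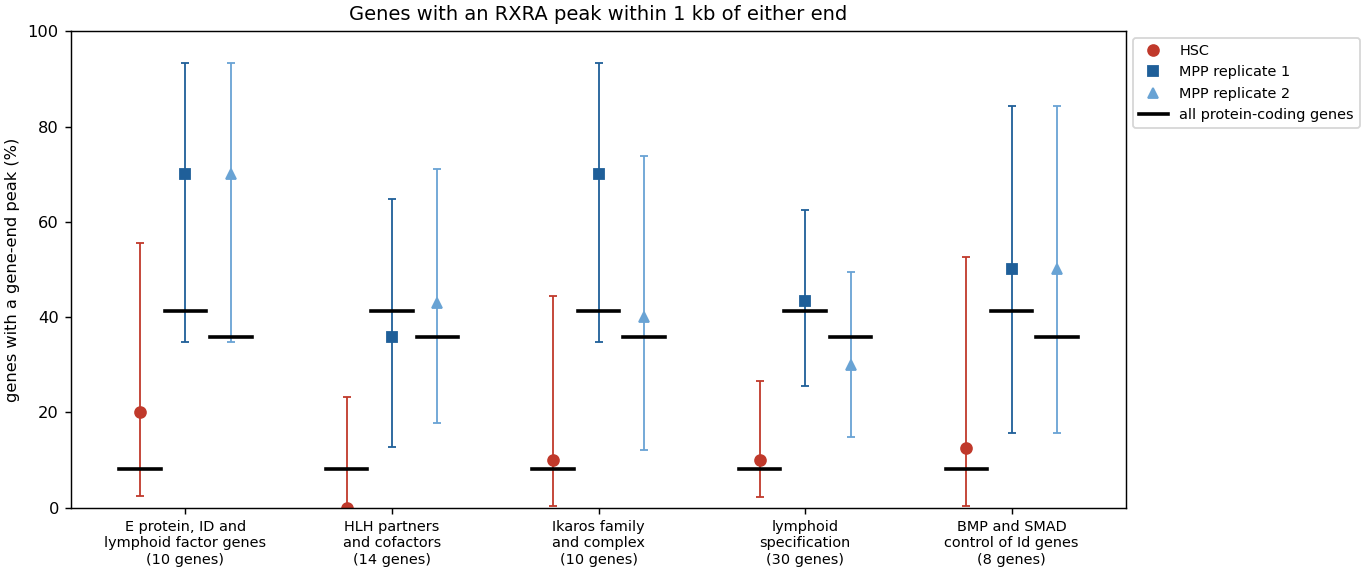
Percent of genes with a gene-end peak (vertical axis) in the 10 E protein, ID and lymphoid factor genes and in 4 wider gene lists, for the 3 libraries, with exact 95% binomial intervals that cover counting error only. Black bars give the share of all protein-coding genes, 8.18% in HSC and 41.2% and 35.9% in MPP, and the list intervals reach them in every case shown.

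Wider lists of 62 genes that act with these factors were marked at about the rate of all genes. HSC marked 5 of the 62 (8.06%), MPP 1 marked 29 (46.8%) and MPP 2 marked 23 (37.1%). Among 14 partners and cofactors of the helix-loop-helix factors, such as Tal1 and Lmo2, none was marked in HSC, which allows up to 23.2% by the exact interval, and 5 and 6 were marked in MPP. Among 10 genes of the Ikaros family and the complex that binds it, 1, 7 and 4 were marked. Among 30 genes of lymphoid specification the counts were 3, 13 and 9, and among 8 genes of BMP and SMAD signalling, which induces Id genes, 1, 4 and 4.

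In all 3 libraries, 5 of the 62 wider-list genes were marked (8.06%), against 5.80% of all protein-coding genes. Lymphoid specification, with 30 of the 62 genes, gave 3 of them. Runx3, a RUNX transcription factor gene, had folds of 7.26 in HSC, 5.05 in MPP 1 and 6.56 in MPP 2. Smad6, which encodes an inhibitor of BMP signalling, had 6.30, 4.34 and 7.53. Chd4, which encodes the remodelling enzyme of the NuRD complex that Ikaros binds, had 5.39, 8.25 and 9.22, and at least 1 of its gene-end peaks also lies at Nop2. Sox4 had 5.24, 4.14 and 4.65, and the receptor gene Notch2 had 3.63, 6.19 and 9.45. Notch1, Flt3, Ikzf5 and Foxo1 led those with a peak in each MPP library but none in HSC, which 23.1% of all genes share. Flt3, the receptor that marks lymphoid-primed progenitors, had 8.45 in MPP 1 and 7.27 in MPP 2, and Notch1 had 6.74 and 7.64. Ikzf5, of the Ikaros family, had 5.73 and 11.8 at an end whose peaks also reach Acadsb, and Foxo1 had 6.99 and 6.59.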

How the data were processed

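Per the submitters' processing notes, MACS2 2.1.4, Bowtie2 2.3.4.1, cutadapt 1.9.1 and Trim Galore 0.4.2 were used with build mm10. How they were set, and any duplicate removal or control library, is not given in the sources used here. Each library has 1 peak list deposited by the authors, without a header, in the 10-column narrowPeak layout, so peaks were not called on pooled replicates. Fold enrichment, as deposited by the authors, is a ratio, at the summit, over the local background. The −log10 p-value and −log10 q-value of each peak are the authors' own. The weakest q of a listed peak was 0.0995 in HSC, 0.0971 in MPP 1 and 0.0993 in MPP 2. The deposited score is 10 times the −log10 q, checked on all peaks, and was not used.

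Pileups were recovered as whole fragments from fold and p, with 1 added to both terms of the fold and a Poisson tail for p. A whole number within 0.001 of the −log10 p was found for 99.98% (HSC), 100% (MPP 1) and 99.99% (MPP 2) of peaks. Intervals are exact Poisson or exact binomial at 95% and cover counting error only. Genes came from RefSeq on GRCm38.p6. Its gene table gives no strand, so either end counted, and strand came from the promoter table for 7 of 10 genes. Peaks overlapped by at least 1 bp. Overlap, classes and pileups were tested on simulated peaks. Python 3.11.15, pandas 2.3.3 and SciPy 1.17.1 were used.

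The genes, lists and tests were chosen with earlier results of these data known. Named genes are the 10, up to 6 wider-list genes marked in all 3 libraries by HSC fold, and up to 4 marked in each MPP library but not HSC by the worse of their fold ranks. Genes at distal peaks are named where described. Alternatives were a stricter q, MPP lists held to the HSC length, other windows and reaches, other overlap rules and leaving out each MPP library.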

Additional observations from a re-analysis of the deposited data

How the results depend on the processing

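Over 10 results, 48 values were recomputed. Of these, 29 stayed within 1.5 times the count reported, or within the exact interval of the share reported, and 19 moved further. At q at or below 1e-05, which left 1180, 15971 and 11816 peaks, 1 member had a gene-end peak in HSC, Tcf4, which was the 1 marked in all 3 libraries, and the windows held 5, 48 and 29 peaks. With each MPP list held to 4047 peaks, 3 members were marked in MPP 1 and 4 in MPP 2, with 1 in all 3, the windows held 8 and 7 peaks, 31.2% of HSC peaks had an MPP counterpart, and 42.9% of MPP 2 peaks had one in MPP 1. The genes marked were Tcf4, Tcf12 and Id3 in both and Tcf3 in MPP 2. With 500 bp at gene ends, 1 member was marked in HSC, Tcf3, and 4 in MPP 1, with 1 in all 3. With annotated starts of transcription only, which 7 genes have, 1 was marked in HSC and 1 in all 3, again Tcf3, and Ikzf1 was gained in MPP 2. With 5 kb at gene ends, Id1 was gained in HSC, which gave 3 genes there and 3 in all 3 libraries, Ikzf2 in MPP 1 and Ikzf1 in MPP 2, with 8 genes in each MPP library. With 50 kb around the gene the windows held 10 HSC peaks and 45 peaks of MPP 1. Apart from the 5 kb window, these settings test fewer peaks or less sequence. Leaving out either MPP library left 2 members marked in both others. It could give no other count, as each MPP library marks both HSC genes, Tcf3 and Tcf4. The HSC counts with the MPP lists held could not move either, as the HSC list was unchanged. These values are among the 29. With either MPP library left out, 68.8% to 75% of the 16 HSC peaks had an MPP counterpart. No paired analysis was possible because the HSC library has no replicate number and no result comes from a test. The lowest called pileup was 8.28 times background in HSC, against 3.48 and 5.55 in MPP, and depth cannot be told apart from cell number and cell type.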

Other observations

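The peak of highest fold in any MPP 1 window had no counterpart in MPP 2. It lay at an end of Cox4i2, a gene of a cytochrome oxidase subunit 16.7 kb from Id1, with a fold of 9.64, rank 282 of 29848 peaks. The HSC peak 74.5 kb from Ikzf2, with a fold of 6.97 and rank 588 of 4047, had no counterpart in either MPP library. Of all HSC peaks, 85.2% had one in at least 1 MPP library. These peaks were singled out after their values were seen. In MPP 2 the highest fold in any window was the 9.69 at the end of Tcf4, and in HSC the 7.08 at the same site.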
